A study of Homo sapiens with 12 samples.

Results

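The S100 calcium-binding proteins were followed here through 10 genes of the family, S100A1, S100A2, S100A3, S100A4, S100A6, S100A10, S100A11, S100A13, S100A14 and S100A16, out of 27788 gene symbols counted and 21 S100 family symbols among them. RNA was sequenced from 2 human cell lines, HCT116, a colorectal carcinoma line, and U-87 MG, a glioblastoma line, each as GSTO1 knockout (KO) cells and as wild-type (WT) cells, with 3 libraries in each of the 4 groups. GSTO1 is glutathione S-transferase omega 1, an enzyme that removes glutathione from protein thiols. The KO cells had been given Cas9 from a lentivirus under blasticidin selection and then a guide RNA directed at exon 2 of GSTO1, and single colonies were picked and checked by Sanger sequencing. Whether the WT cells were untreated or had received the control guide, how many colonies stand behind each KO group, and whether the 3 libraries came from separate cultures is not stated in the labels, so a p-value here reflects how far libraries of a group differ from each other, and that spread may be technical. HCT116 was read in single reads and U-87 MG in paired reads of 50 bases, so cell line and read layout cannot be told apart wherever the lines are compared.

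The 10 genes were chosen with their levels in each line and their KO against WT values in view, and the rise of S100A1 in both lines is part of the choice. Their values are therefore given as a description. Tests are read only for genes outside the 10. The lists of those genes were also drawn up with earlier results of these data known, which limits their p-values too. A gene was called when edgeR's quasi-likelihood test gave an adjusted p under 0.05 over all genes tested in that line, the fold was above 1.5 and the mean FPKM over the 6 libraries of the line was above 0.5. FPKM are fragments scaled by transcript length and by the size of the library, and are used to compare genes with each other. CPM are counts scaled by the size and composition of the library, separately in each line, and are used to compare libraries of the same line. For the 10 genes the same rule is given as a label of size and spread only: it was applied to the values they were chosen on, no p is printed and nothing rests on it. The words rose and fell are kept for called genes outside the 10.

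S100 proteins are small calcium sensors of the EF-hand family that pair into dimers. On binding calcium most of them expose a surface that grips a partner protein, such as an annexin, a myosin or a chaperone, and several also act outside the cell on receptors such as RAGE (AGER). S100A10 is the exception that holds its open shape without calcium and is found bound to annexin A2. Most of the family sits in the epidermal differentiation complex of 1q21, and the genes are used very differently by epithelia, glia and blood cells.

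All 10 genes lie on chromosome 1 in the GENCODE 44 annotation of GRCh38, and 9 of them are on the minus strand. S100A10 (chr1:151982915-151993859) and S100A11 (chr1:152032506-152047907) stand apart from the other 8. Those run from S100A6 (chr1:153534599-153536244) through S100A4 (chr1:153543613-153550136), S100A3 (chr1:153547329-153549258), S100A2 (chr1:153561108-153567890), S100A16 (chr1:153606886-153613145), S100A14 (chr1:153614255-153616986) and S100A13 (chr1:153618787-153631360) to S100A1 (chr1:153627926-153632039, plus strand). The canonical transcript has 3 exons in each gene except S100A14, which has 4. S100A1 and S100A13 overlap head to head: in GENCODE 44, S100A13 lies antisense to 7.76% of the exon bases of S100A1, and S100A1 to 10.6% of those of S100A13. In RefSeq 1 start of S100A13 lies just below chr1:153634362, outside the GENCODE span of the gene. The deposited FPKM used refGene, so the overlap behind them may differ from these shares. No source used here gives the strand setting of the counting, so reads from the shared bases cannot be assigned with certainty.

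The stretches upstream of S100A1, the gene higher in both knockouts, and of S100A4, the gene that went opposite ways, are shown 5′ to 3′ from the RefSeq promoter table (GRCh38.p14). For S100A1 the stretch is chr1:153628284-153628383 on the plus strand and leaves out the 50 bases before the RefSeq start, part of which lies in annotated exons. For S100A4 it is chr1:153545807-153545956 on the minus strand and ends at the base before the start. Both stretches precede 1 RefSeq start of their gene and lie within the span GENCODE 44 gives the gene, whose longest transcripts start further upstream. Capitals mark a match to any of the 7 motifs searched.
S100A1: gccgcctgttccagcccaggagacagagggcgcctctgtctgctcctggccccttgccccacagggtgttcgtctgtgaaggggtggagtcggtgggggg
S100A4: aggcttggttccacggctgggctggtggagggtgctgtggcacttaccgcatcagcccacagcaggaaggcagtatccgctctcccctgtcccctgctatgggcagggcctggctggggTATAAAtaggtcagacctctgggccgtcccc
The capitals in the S100A4 stretch are a TATA box (TATAAA), which begins 31 bases before the start. The 250 bases before each RefSeq start were searched on both strands, in 14 windows for the 10 genes and in 34941 windows over all genes. TATAAA was found in 2 of the 14 windows (S100A4 and S100A13) and in 10.75% of all windows. The GC box GGGCGG was found in 6 of the 14 windows (S100A3, S100A6, S100A10, S100A11, S100A13 and S100A16) and in 42.55% of all windows. CCAAT was found in 3 of the 14 (S100A3, S100A13 and S100A16, 32.04% of all windows), and the AP-1 motif TGANTCA in 2 of the 14 (S100A2 and S100A3, 6.591% of all windows). The E-box CACGTG (6.322% of all windows), the core of the interferon-stimulated element (GAAA, any 2 bases, GAAA, 3.022%) and the NF-kB motif (GGGA, any base, TT, any base, CC, 1.265%) were found for none of the 10. S100A1 had none of the 7 motifs in its window.

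Library totals ran from 17814142 to 28097179 counts. GSTO1 itself was lower in every KO library: 17.1, 14.6 and 15.7 CPM against 63.9, 64.7 and 61.4 CPM in WT HCT116 (edgeR adjusted p = 6.78e-15), and 25.02, 23.8 and 25.2 CPM against 143, 142 and 117 CPM in WT U-87 MG (adjusted p = 7.02e-14). WT replicate 3 of U-87 MG stood furthest apart, and values that turn on it are given with and without it. The chi-square per degree of freedom of its counts against the other U-87 MG WT libraries was 8.62 and 9.77, against 2.42 between those. Replicate 3 also stood apart in HCT116, to a smaller degree. Its values were 5.82 and 5.65 in KO, against 1.82 between the other KO libraries. In WT they were 3.77 and 3.58, against 1.49. Epithelial markers, 6 of 8 (EPCAM, CDH1, KRT8, KRT18, KRT20 and CDX2) were present in HCT116, with VIL1 and LGALS4 near 0. The summed level of the 8 was 1394 to 1518 FPKM in KO and 1596 to 1661 FPKM in WT libraries. Single markers differed in direction: KRT8 and KRT18 were lower in every KO library, and EPCAM, KRT20 and CDX2 overlapped. CDH1 was higher, at 15.3 to 16.4 FPKM in KO and 8.77 to 9.51 FPKM in WT. In U-87 MG the defining glial markers GFAP, OLIG2 and SOX2 were at or near 0, while VIM, CD44, FN1, NES and COL1A1 were present. The summed level of the list was 6064 to 6128 FPKM in KO and 6546 to 7353 FPKM in WT libraries. Of the markers present, VIM and COL1A1 were lower in every KO library, and CD44, FN1 and NES were higher. Leukocyte markers summed to at most 0.499 FPKM in any library. In bulk RNA, fewer cells that express a gene and less RNA per cell cannot be told apart.

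S100A6, whose protein binds the ubiquitin ligase adaptor CACYBP, was the most abundant of the 10 genes in both lines. In WT HCT116 it stood at 578 ± 18.4 FPKM (SD, n = 3) and ranked 119 among 24552 symbols with an FPKM. In WT U-87 MG it stood at 2201 ± 274 FPKM and ranked 11. S100A11, an annexin A1 partner that is abundant in epithelia, came second in both lines, at 247 ± 9.07 FPKM in HCT116 and 1030 ± 55.6 FPKM in U-87 MG.

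Below these, the order of the genes differed between the lines. In WT HCT116, S100A16 (98.2 FPKM) and S100A10 (96.9 FPKM) overlapped and were followed by S100A4 (88.0), S100A13 (62.7), S100A14 (44.9), S100A2 (7.25), S100A3 (5.36) and S100A1 (0.889 FPKM), where no other neighbours overlapped. In WT U-87 MG, the order was S100A10 (391 FPKM), S100A16 (249), S100A13 (115), S100A3 (46.2), S100A4 (45.7), S100A2 (19.2), S100A1 (0.134) and S100A14 (0.0158 FPKM). There S100A3 and S100A4 overlapped, as did S100A1 and S100A14. The place of S100A3 above S100A4 turned on WT replicate 3, with 47.6 against 37.7 FPKM. In WT replicates 1 and 2 S100A4 was the higher, at 49.3 and 49.9 against 44.6 and 46.3 FPKM, with no overlap. In the KO, S100A4 stood in the third place in HCT116, at 153 ± 6.30 FPKM, with S100A10 moved down to the sixth, where it overlapped S100A13. In KO U-87 MG S100A4 stood in the eighth place, at 10.4 ± 1.21 FPKM.

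Of the 10 genes, 7 had higher FPKM in WT U-87 MG than in WT HCT116, with no overlap between the libraries, and the other 3 had lower FPKM, also with no overlap. Of 13050 genes with a mean FPKM above 0.5 over the 6 WT libraries, 87.9% did not overlap between the lines (40.8% higher and 47.1% lower in U-87 MG), so such a separation was common. The ratio of the means was 8.61 for S100A3, 4.16 for S100A11, 4.04 for S100A10, 3.81 for S100A6, 2.65 for S100A2, 2.53 for S100A16 and 1.83 for S100A13. S100A4 went the other way and was 1.93 times higher in WT HCT116. S100A14, which marks epithelia, was far higher in HCT116, at 43.9 to 46.3 FPKM in the WT libraries against at most 0.0473 FPKM in those of WT U-87 MG. S100A1 was near the limit of detection in both WT groups, at 0.564 to 1.06 FPKM in HCT116 and 0 to 0.298 FPKM in U-87 MG.

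**Figure D1:**
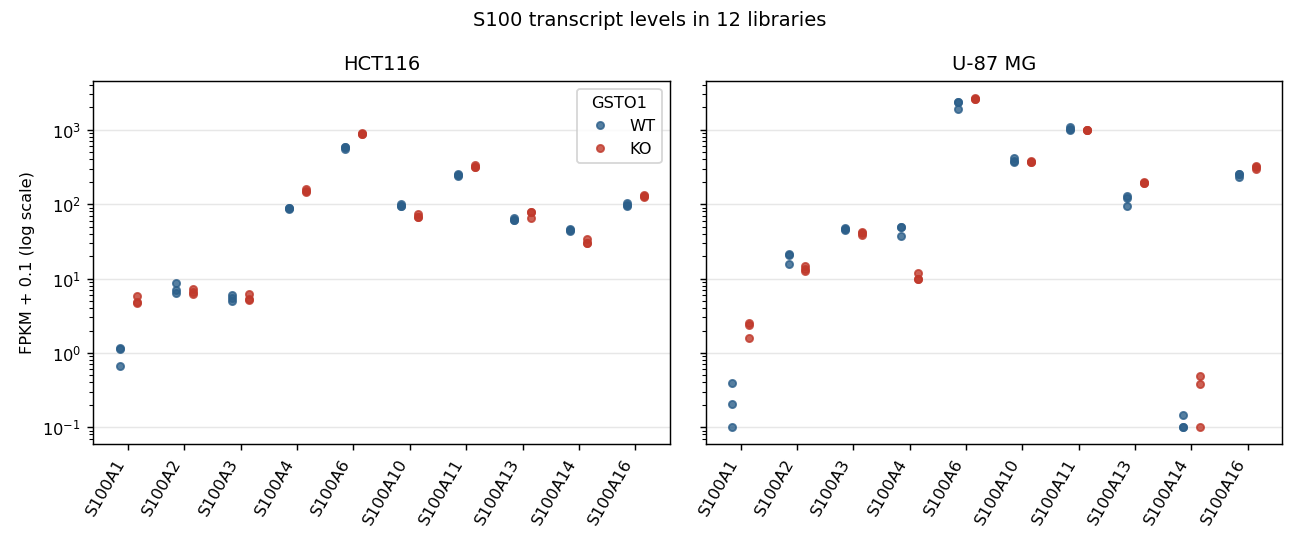
FPKM + 0.1 of the 10 S100 genes on a log axis, 1 point per library, with HCT116 on the left and U-87 MG on the right (blue, WT; red, GSTO1 KO). S100A6 is highest in both lines, the red points of S100A1 lie above the blue ones in both, and S100A4 lies above WT in HCT116 and below WT in U-87 MG.

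The 10 genes together took a larger share of all counts in every KO library than in any WT library of its line. The share was 0.117% to 0.119% in KO and 0.0841% to 0.0857% in WT HCT116. It was 0.291% to 0.297% in KO and 0.245% to 0.268% in WT U-87 MG. S100A6 alone made up a mean of 51.7% of these counts in KO and 43.8% in WT HCT116, and 54.1% and 50.8% in U-87 MG. The U-87 MG libraries ran from 53.3% to 55.2% in KO and from 46.7% to 53.2% in WT, where replicate 3 was the lowest.

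In HCT116 all 10 genes passed the filter on low counts, and 3 were called higher in KO (S100A1, S100A4 and S100A6) and 0 lower, where 11.9% of the 14068 genes tested were called (7.82% higher and 4.07% lower). The KO and WT libraries did not overlap in CPM for 8 of the 10, 6 of them higher and 2 lower in KO, where 61.6% of all genes tested did not overlap. The median log2 fold change was 0.38 over the 10 genes and 0.01 over all genes. In U-87 MG 9 of the 10 passed the filter, S100A14 being too low, and 2 were called higher (S100A1 and S100A13) and 1 lower (S100A4), where 16.2% of 13741 genes tested were called (8.06% higher and 8.15% lower). Libraries did not overlap for 7 genes, 4 higher and 3 lower in KO, where 64% of all genes tested did not overlap, and the median log2 fold change was -0.07, against 0.01 over all genes. Since these contrasts were in view when the genes were chosen, nothing is read from the counts.

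**Figure D2:**
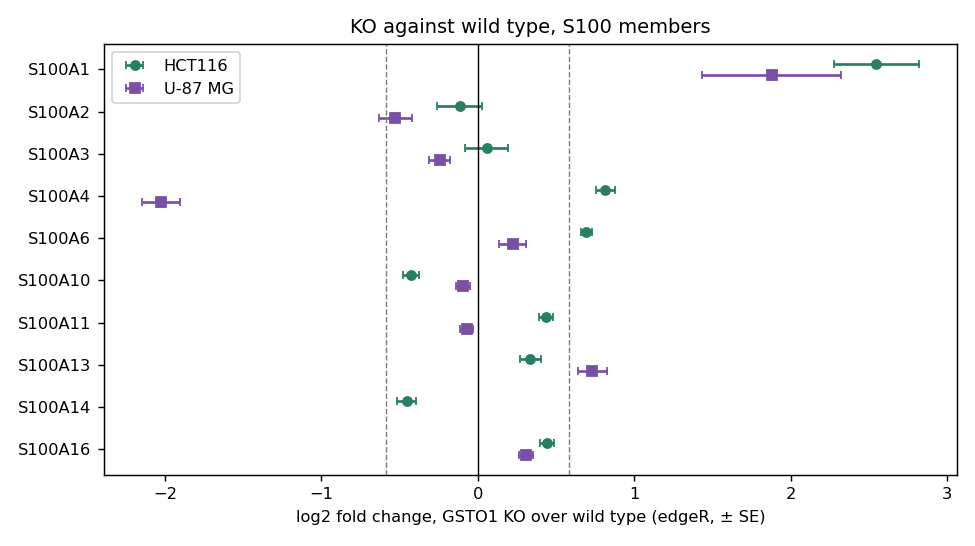
The log2 fold change of KO over WT with its standard error from edgeR, for each of the 10 genes in HCT116 (green circles) and U-87 MG (purple squares), with dashed lines at a fold of 1.5 either way. S100A1 is positive in both lines, S100A4 is 0.81 in HCT116 and -2.02 in U-87 MG, and S100A14 has no value in U-87 MG, where it was too low to test.

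S100A1, best known as a regulator of calcium cycling in heart muscle, was higher in both knockouts, from a very low level in WT. In HCT116 it was counted 45, 49 and 78 times in the KO libraries and 14, 8 and 12 times in the WT libraries, or 2.51, 2.58 and 3.26 CPM against 0.576, 0.308 and 0.566 CPM. The U-87 MG counts were 18, 25 and 30 in KO and 11, 4 and 5 in WT, or 0.650, 1.20 and 1.36 CPM against 0.484, 0.145 and 0.237 CPM. All KO libraries lay above all WT libraries in each line, by a narrow margin in U-87 MG, where KO replicate 1 was close to WT replicate 1.

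The log2 fold change of S100A1 was 2.55 ± 0.27 (SE) in HCT116 and 1.88 ± 0.45 in U-87 MG, from 34 and 20 counts in all in the WT groups. The gene passed the filter on low counts only through its KO libraries. In HCT116 the ratio of mean CPM (5.76) and of mean FPKM (5.66) were close. In U-87 MG the ratio of mean CPM was 3.71 and that of mean FPKM was 15.4, since the FPKM of the WT libraries were 0.298, 0 and 0.105 and the library listed at 0 FPKM held 4 counts. The direction was the same by both measures, and the size of the difference in U-87 MG was not well determined. Left-out libraries moved its log2 fold change between 1.50 and 2.46 there, and between 2.28 and 2.71 in HCT116.

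Because S100A13 runs antisense through S100A1 and is far more abundant, the counts of S100A1 were also set against those of S100A13 in the same library. In HCT116 they were 5.16% to 6.47% of the S100A13 counts in KO and 0.815% to 1.57% in WT, with no overlap. In U-87 MG they were 0.649% to 1.40% in KO and 0.218% to 0.785% in WT, and these ranges overlapped. S100A13 was higher in KO too in both lines, and the part of its reads in the count of S100A1 was not tested in either.

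S100A13 takes part in the release of FGF1 from cells, in a complex that includes synaptotagmin 1 (SYT1). In U-87 MG it stood at 100, 97.9 and 97.7 CPM in KO and 61.7, 66.5 and 49.2 CPM in WT, with no overlap. The log2 fold change was 0.73 ± 0.09 there, and 0.61 ± 0.05 without WT replicate 3, and it was called both ways. In HCT116 it stood at 43.3, 50.0 and 50.4 CPM in KO and 36.8, 37.8 and 39.6 CPM in WT, a log2 difference of 0.34 ± 0.07 that stayed under the fold threshold. A lncRNA that was not counted shares 18.8% of the 50-base stretches of S100A13, so its level is less certain than that of the other genes.

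SYT1 rose in both lines, with a log2 fold change of 0.92 ± 0.07 in HCT116 (edgeR adjusted p = 9.83e-10) and 0.78 ± 0.20 in U-87 MG (adjusted p = 0.00218). In U-87 MG its level was 2.64 to 3.36 CPM in KO and 1.52 to 1.85 CPM in WT, and its mean FPKM of 0.501 lay just above the threshold. Without any 1 of the KO libraries the log2 fold change was 0.68 to 0.85, but the mean FPKM fell to between 0.466 and 0.492 and the call was lost. FGF1 was at 11 counts or fewer in each HCT116 library and was not tested there. In U-87 MG FGF1 had a log2 difference of -0.22 ± 0.10 (adjusted p = 0.0529).

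S100A4, the metastasis-associated S100 protein that binds the heavy chain of non-muscle myosin IIA (MYH9), was higher in KO HCT116 and lower in KO U-87 MG. In HCT116 it stood at 63.8, 60.2 and 67.6 CPM in KO and 36.4, 36.3 and 36.5 CPM in WT. In U-87 MG it stood at 4.40, 5.14 and 5.45 CPM in KO and 21.7, 22.01 and 16.8 CPM in WT. No KO library overlapped a WT library in either line, and the directions were opposite.

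The log2 fold change of S100A4 was 0.81 ± 0.06 in HCT116 and -2.02 ± 0.12 in U-87 MG, and -2.14 ± 0.11 without WT replicate 3 of U-87 MG. The difference between the lines (HCT116 minus U-87 MG) was 2.85 ± 0.13. By FPKM the same picture held, with 153, 147 and 160 against 88.1, 88.7 and 87.1 in HCT116, and 9.68, 9.66 and 11.8 against 49.3, 49.9 and 37.7 in U-87 MG. The WT lines differed 1.93 times in FPKM, and the KO lines stood at 153 and 10.4 FPKM, further apart.

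MYH9 (chr22:36281280-36388010, minus strand), which encodes the myosin heavy chain bound by S100A4, fell in U-87 MG. It stood at 704, 702 and 707 CPM in KO and 1920, 2019 and 1949 CPM in WT U-87 MG, with a log2 fold change of -1.48 ± 0.03 (edgeR adjusted p = 3.24e-19). In HCT116 it stood at 732, 727 and 787 CPM in KO and 790, 764 and 801 CPM in WT, with a log2 difference of -0.07 ± 0.04 (adjusted p = 0.133). The difference between the lines was 1.42 ± 0.06 (adjusted p = 1.21e-19). The counts of S100A4 were 8.28% to 8.72% of those of MYH9 in KO and 4.56% to 4.75% in WT HCT116, and 0.626% to 0.772% in KO and 0.862% to 1.13% in WT U-87 MG.

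Other genes of chromosome 22 moved with MYH9 in U-87 MG: 225 of the 313 tested were called lower and 4 higher, with a median log2 fold change of -0.97. In HCT116, 13 of 357 were called lower and 26 higher, with a median of -0.01. The part of this in the fall of MYH9 was not tested.

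**Figure D3:**
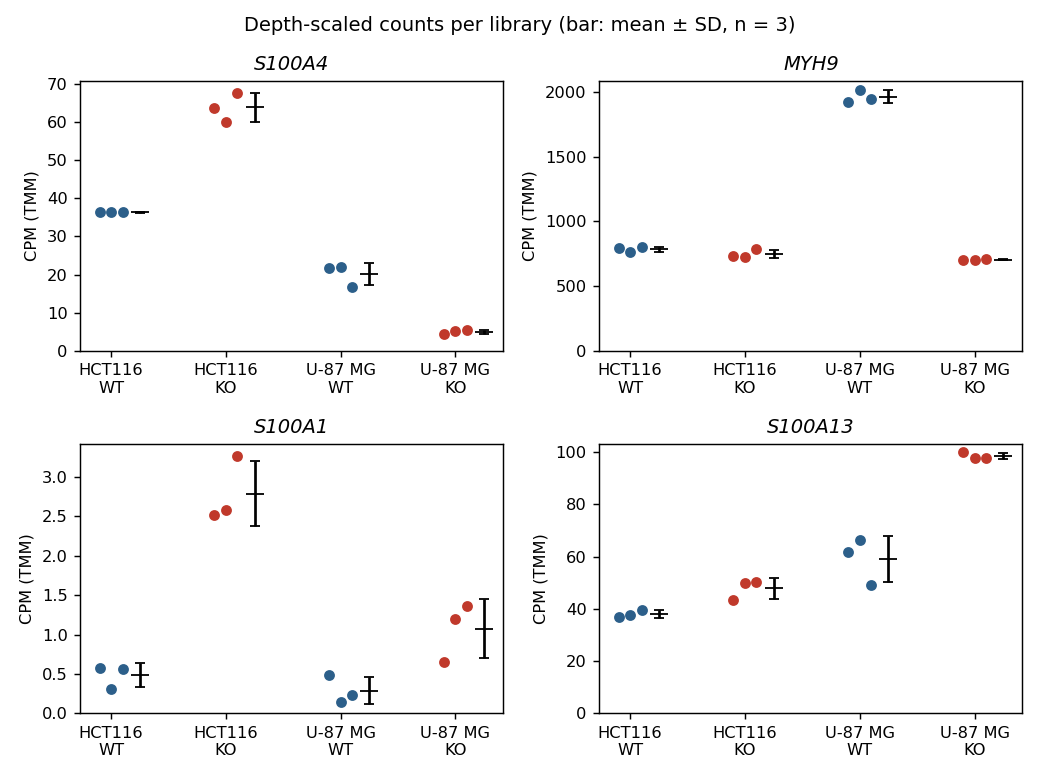
CPM in each of the 12 libraries (points) with the mean and SD of each group (n = 3) for S100A4 and the gene of its myosin partner MYH9 (top), and for the overlapping genes S100A1 and S100A13 (bottom), blue for WT and red for KO. CPM were scaled within each line, so heights are to be compared within a line. S100A4 is above 60 CPM in the HCT116 KO libraries and under 6 CPM in those of U-87 MG KO. MYH9 is lower in KO U-87 MG and overlaps between KO and WT in HCT116, and S100A1 is higher in KO in both lines.

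S100A6 was higher in KO HCT116, at 622, 609 and 587 CPM against 374, 380 and 370 CPM in WT, a log2 fold change of 0.69 ± 0.04. In U-87 MG it stood at 1612, 1540 and 1553 CPM in KO and 1417, 1451 and 1162 CPM in WT, a log2 difference of 0.22 ± 0.09 that was under the fold threshold and became 0.12 ± 0.03 without WT replicate 3. The libraries did not overlap in either line. CACYBP, the calcyclin-binding protein named after S100A6 (calcyclin), fell in HCT116, with a log2 fold change of -0.73 ± 0.04 (edgeR adjusted p = 2.11e-11). In U-87 MG its log2 difference was -0.35 ± 0.05 (adjusted p = 1.26e-06), under the fold threshold. The counts of S100A6 thus went from 160% of those of CACYBP in each WT HCT116 library to between 421% and 434% in KO, and in U-87 MG from between 1016% and 1331% to between 1805% and 1816%. A processed copy elsewhere shares 7.14% of the 50-base stretches of CACYBP, and MRPS14 lies antisense to 8.39% of its exon bases.

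S100A10 and ANXA2 encode the subunits of the annexin A2 heterotetramer, which binds membranes and plasminogen activators at the cell surface. In HCT116 S100A10 stood at 81.2, 73.1 and 74.3 CPM in KO and 100, 105 and 102 CPM in WT, a log2 difference of -0.43 ± 0.05. ANXA2 stood at 1531, 1545 and 1523 CPM in KO and 1274, 1277 and 1280 CPM in WT HCT116, a log2 difference of 0.26 ± 0.03 (edgeR adjusted p = 6.43e-07). Both were under the fold threshold and in opposite directions, and S100A10 counts made up 4.73% to 5.30% of ANXA2 counts in KO and 7.85% to 8.23% in WT.

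In U-87 MG the KO and WT libraries of S100A10 overlapped, at 368, 363 and 376 CPM in KO and 383, 373 and 425 CPM in WT (log2 difference -0.09 ± 0.04). ANXA2 was slightly higher in KO there, by 0.13 ± 0.03 on the log2 scale (adjusted p = 0.00199). S100A10 counts were 15.3% to 16.02% of ANXA2 counts in KO and 17.4% to 19.4% in WT, lower in KO with no overlap. Of single genes tested in U-87 MG, 64% did not overlap. The share over pairs of genes was not counted, and nothing is read from this separation. Of the 50-base stretches of ANXA2, 4.72% also occur elsewhere, mostly in a processed copy. AHNAK, a giant scaffold protein bound by the S100A10 and annexin A2 complex, had a log2 difference of 0.30 ± 0.04 in HCT116 (adjusted p = 5.22e-06) and 0.0014 ± 0.03 in U-87 MG (adjusted p = 0.974).

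S100A11 stood at 157, 168 and 156 CPM in KO and 118, 122 and 116 CPM in WT HCT116, with no overlap and a log2 difference of 0.43 ± 0.05. In U-87 MG its libraries overlapped, at 437, 436 and 445 CPM in KO and 448, 444 and 493 CPM in WT (-0.07 ± 0.04). Its partner ANXA1, a membrane-binding annexin known for its anti-inflammatory peptides, had a log2 difference of 0.29 ± 0.04 in HCT116 (edgeR adjusted p = 1.1e-05) and 0.10 ± 0.04 in U-87 MG (adjusted p = 0.0338). Neither gene passed the fold threshold in either line.

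S100A16, a broadly expressed member, was higher in every KO library of both lines without passing the fold threshold. It stood at 163, 169 and 173 CPM in KO and 119, 123 and 129 CPM in WT HCT116, and at 356, 375 and 388 CPM in KO and 311, 309 and 283 CPM in WT U-87 MG. The log2 differences were 0.44 ± 0.05 and 0.31 ± 0.04. S100A1, S100A6, S100A13 and S100A16 were the members whose KO libraries all lay above the WT libraries in both lines. Of all genes tested, 61.6% in HCT116 and 64% in U-87 MG did not overlap, in either direction. The share of all genes higher in both lines was not counted, and nothing is read from these members.

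S100A14 lies next to S100A16 and is an epithelial gene. In HCT116 it went the other way from S100A16, at 34.3, 34.2 and 37.0 CPM in KO and 49.9, 47.8 and 47.2 CPM in WT, a log2 difference of -0.46 ± 0.06 under the fold threshold. U-87 MG held 0, 8 and 6 counts of it in KO and 0, 0 and 1 in WT, too few for the test. No fold is given for it there, and the KO and WT libraries overlapped at 0.

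S100A2, a gene of squamous epithelia, overlapped between KO and WT in HCT116, at 6.42, 7.002 and 8.15 CPM in KO and 7.49, 6.40 and 9.91 CPM in WT (log2 difference -0.12 ± 0.14, and 0.06 without WT replicate 3). In U-87 MG it stood at 13.2, 12.0 and 13.5 CPM in KO and 19.3, 21.1 and 15.3 CPM in WT, lower in every KO library. Its log2 difference of -0.53 ± 0.10 in U-87 MG was just under the fold threshold, and without WT replicate 3 it was -0.65 ± 0.09 and was called. S100A2 was the member closest to the threshold from below, and S100A6 in HCT116, at a fold of 1.62, the called member closest from above.

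S100A3, known from the hair cuticle, lies within the span of S100A4 on the same strand but moved less than S100A4 in both lines. In HCT116 it stood at 5.13, 4.69 and 5.39 CPM in KO and 4.36, 4.74 and 5.66 CPM in WT, with overlap and a log2 difference of 0.05 ± 0.14. In U-87 MG it stood at 30.7, 33.5 and 33.1 CPM in KO and 35.5, 38.3 and 41.4 CPM in WT, lower in every KO library by 0.25 on the fitted log2 scale (value -0.25 ± 0.07). S100A4 had a fitted value of -2.02 in the same libraries.

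Of the other 11 S100 genes that were counted, 9 had at most 4 counts in any library. S100A8, S100A9 and S100A12, the calgranulins of myeloid cells, had 0 counts in all 12 libraries, as had S100A7A, S100A7L2 and S100G. S100A7 (psoriasin) reached 1 count, S100P 2 counts and S100B, the astrocyte and melanocyte marker, 4 counts in a library. S100A5 and S100Z were higher than this. Only S100A5 could be tested in HCT116, with a log2 difference of -0.03 ± 0.24 (edgeR adjusted p = 0.937, highest count 38), and only S100Z in U-87 MG, with 0.10 ± 0.20 (adjusted p = 0.682, highest count 83). Neither passed the test.

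Annexins bind membranes through calcium and are the best-known partner family of S100 proteins. Of 13 annexin genes 10 were tested in HCT116, where 1 was called higher and 0 lower, and the median log2 fold change was 0.18 (all genes, 11.9% called, median 0.01). The called gene was ANXA4, at 85.0 to 88.1 CPM in KO and 50.0 to 55.8 CPM in WT (0.71 ± 0.05, edgeR adjusted p = 1.15e-09). Of 9 tested in U-87 MG 2 were called higher and 0 lower, with a median of 0.13 (all genes, 16.2% called, median 0.01). These were ANXA10 (1.23 ± 0.19, adjusted p = 8.68e-06) and ANXA9 (1.47 ± 0.29, adjusted p = 0.000153), both under 7 CPM in every U-87 MG library.

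For the S100 partners ANXA6 and ANXA11 the log2 differences were 0.22 ± 0.04 (adjusted p = 0.00033) and 0.21 ± 0.04 (adjusted p = 0.00014) in HCT116, and 0.06 ± 0.04 (adjusted p = 0.212) and 0.03 ± 0.04 (adjusted p = 0.606) in U-87 MG. Tested for the difference between the lines, where 16.9% of all genes were called (9.66% higher and 7.24% lower in HCT116), 3 of 10 annexins were called, each with the lower fold change in HCT116. They were ANXA10 (-1.79 ± 0.23, adjusted p = 9.5e-08), ANXA7 (-0.63 ± 0.07, adjusted p = 1.41e-08) and ANXA9 (-1.37 ± 0.38, adjusted p = 0.00406).

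Of 35 other partners and receptors of S100 proteins, 26 were tested in HCT116, where 4 were called higher and 3 lower (all genes, 7.82% higher and 4.07% lower), and the median log2 fold change was -0.07 (all genes, 0.01). Among the higher ones were SYT1 (above), the plasminogen activator gene PLAT with 0.95 ± 0.09 (edgeR adjusted p = 5.96e-08), and the receptor gene AGER with 0.60 ± 0.11 (adjusted p = 8.37e-05), which is named here after its value was seen. The lower ones were CACYBP (above) and 2 co-chaperones of Hsp90 that bind S100 proteins, STIP1 (-0.63 ± 0.04, adjusted p = 1.98e-11) and FKBP4 (-0.60 ± 0.04, adjusted p = 3.87e-11).

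In U-87 MG 28 of the 35 were tested, 1 was called higher (SYT1) and 2 lower (all genes, 8.06% higher and 8.15% lower), and the median was -0.10 (all genes, 0.01). MYH9 (above) was among the lower ones. STIP1 had -0.07 ± 0.04 (edgeR adjusted p = 0.135) and FKBP4 -0.23 ± 0.04 (adjusted p = 0.000131) in U-87 MG. PLAT had -0.54 ± 0.07 there (adjusted p = 1.01e-06), lower in every KO library but under the fold threshold. The difference between the lines was called for 4 of 31 (all genes, 16.9% called). The fold change was higher in HCT116 for MYH9, PLAT and FGF1 and lower for BSG.

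The neighbours of the S100 genes were taken from 1 Mb before to 1 Mb after them (chr1:150982915-154632039), which held 118 other counted genes. In HCT116 47 were tested, 2 were called higher and 0 lower (all genes, 11.9% called), and the median log2 fold change was 0.04. These were RFX5, a transcription factor of MHC class II genes (0.78 ± 0.05, edgeR adjusted p = 5.58e-11), and MINDY1, a deubiquitinase (0.86 ± 0.18, adjusted p = 0.000413). In U-87 MG 48 were tested, 1 was called higher and 1 lower (all genes, 16.2% called), with a median of -0.05. There MLLT11 rose (1.15 ± 0.04, adjusted p = 1.78e-15) and the interleukin 6 receptor gene IL6R fell (-0.79 ± 0.11, adjusted p = 2.69e-06). On log2(FPKM + 1), which shrinks the folds of low genes, MINDY1 was at 0.30 and IL6R at -0.50, under the fold threshold.

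The genes directly beside the S100 genes did not pass the fold threshold. CHTOP, next to S100A1, had log2 differences of 0.01 ± 0.04 in HCT116 (adjusted p = 0.816) and -0.13 ± 0.05 in U-87 MG (adjusted p = 0.0494). THEM4, before S100A10, had -0.12 ± 0.07 (adjusted p = 0.136) and -0.23 ± 0.06 (adjusted p = 0.0047). NBPF18P and TCHHL1, on either side of S100A11, were at 0 to 2 counts over each group and were not tested. Within the S100 genes themselves, neighbours differed in sign in both lines, as S100A16 and S100A14 did in HCT116 and S100A2 and S100A16 in U-87 MG.

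**Figure D4:**
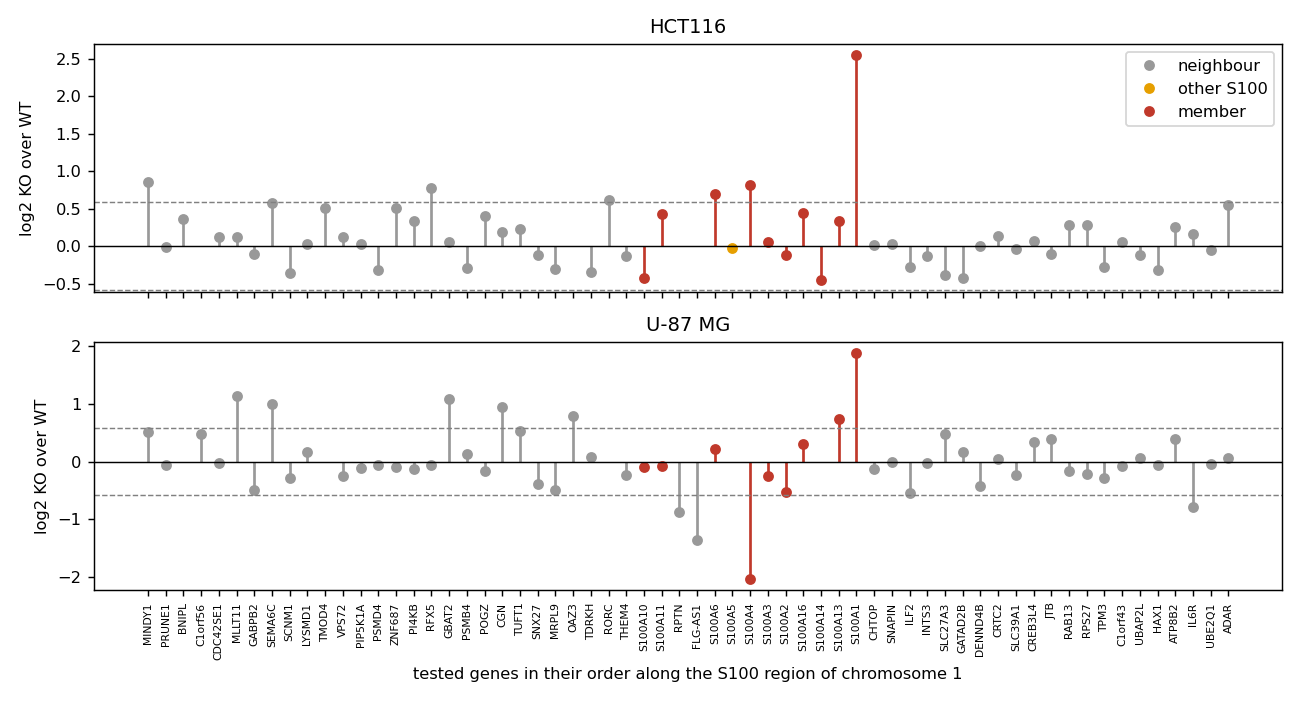
The log2 fold change of KO over WT for each tested gene along the S100 region of chromosome 1, in order and not to scale, in HCT116 (top) and U-87 MG (bottom), with S100 members in red, another S100 gene in yellow, neighbours in grey, and dashed lines at a fold of 1.5. S100A1 is the tallest stem in HCT116 at 2.55, S100A4 reaches -2.02 in U-87 MG, and CHTOP beside S100A1 is at 0.01 and -0.13.

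The genes most like S100A1 over the 12 libraries were sought among 9085 genes with a mean FPKM of at least 2 in each line. For this, CPM were scaled over all 12 libraries together. The highest Pearson correlations of log2 CPM were with EPS8 (0.934), FLOT2 (0.933), CORO6 (0.931), GLG1 (0.930) and ZFAND3 (0.929). The 12 points share cell line, genotype and depth, and the values are a description of these libraries only.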

How the data were processed

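RNA sequencing of 12 libraries was used. The submitters' processing notes name STAR 2.5.2 as aligner and GRCh38 as build. The authors deposited counts of whole reads for each gene symbol, from featureCounts 1.6.1, and FPKM, from Cufflinks 2.2.1 with refGene. Per the design text, the authors tested counts with DESeq2 1.18.1. How strand, multi-mapping reads and pairs were handled is not stated there.

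Counts were tested in each line with edgeR 4.0.16 (filterByExpr, TMM scaling, robust quasi-likelihood fit, Benjamini-Hochberg adjustment), and the difference between lines with an interaction over all 12 libraries. The scripts were tested on simulated counts. Alternatives were DESeq2 1.42.0 and its size factors, no filter, limma 3.58.1 on log2(FPKM + 1) and log2(FPKM + 0.1), a replicate block and leaving out each library. The thresholds follow the design text, applied to all gene types.

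The members and the gene lists were chosen with earlier results of these data known. Named were all members, GSTO1, other S100 genes, 8 direct partners (ANXA1, ANXA2, ANXA6, ANXA11, AHNAK, MYH9, CACYBP and FGF1), up to 4 called genes of each list and comparison with the smallest adjusted p, the genes beside a member, and the 5 genes most like S100A1, except for items of the partner list that are counted but not reported here by name. Symbols were placed with GENCODE 44 and RefSeq synonyms, for 92.1% of those counted. Shared sequence was checked as 50-base stretches of the GENCODE transcripts.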

Additional observations from a re-analysis of the deposited data

Results flagged for a closer look

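S100A4 had a log2 fold change of 0.81 in HCT116 and -2.02 in U-87 MG, with every KO library above every WT library in the one line and below in the other. No p is read for the difference, since S100A4 was chosen with this contrast in view. The following genes outside the 10 had a difference between the lines that passed edgeR's interaction test, given as the log2 fold change in HCT116 minus that in U-87 MG. Among partners and receptors, MYH9 had 1.42 (adjusted p = 1.21e-19), PLAT 1.50 (adjusted p = 6e-12), FGF1 1.84 (adjusted p = 0.0117) and BSG, the gene of basigin, -0.61 (adjusted p = 1.25e-10). The value of FGF1 rests on at most 11 counts in each HCT116 library. MYH9 lies on chromosome 22, where 228 of 377 genes tested were called with the higher fold change in HCT116 (median difference 0.95). The part of this in the value of MYH9 was not tested. Among annexins, ANXA10 had -1.79 (adjusted p = 9.5e-08), ANXA9 -1.37 (adjusted p = 0.00406) and ANXA7 -0.63 (adjusted p = 1.41e-08). Among the genes around the S100 region, 8 of 51 tested had such a difference, 3 higher and 5 lower in HCT116. Over all genes tested, 16.9% had one (9.66% higher and 7.24% lower), so the region did not stand out. Of the lower ones around the S100 region, 3 fall outside the naming rule. RFX5 had 0.85 (adjusted p = 1.54e-11), IL6R 0.96 (adjusted p = 2.84e-06), ZNF687 0.60 (adjusted p = 6.52e-07), MLLT11 -1.01 (adjusted p = 0.000203) and GATAD2B -0.59 (adjusted p = 3.42e-07). MYH9, RFX5, ANXA10, ANXA9, MLLT11, IL6R and PLAT were also called in 1 line alone. FGF1, BSG, ANXA7, ZNF687 and GATAD2B were called in neither.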

How the results depend on the processing

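The count of S100 members called was 3 in HCT116 under every alternative run and 3 in U-87 MG, except 4 without U-87 MG WT replicate 3, where S100A2 was added. The other lists held 10 called genes in HCT116 (9 to 13 without single libraries), 7 in U-87 MG (6 to 10, and 5 with limma on log2(FPKM + 1)) and 15 for the difference between the lines (13 to 18), and the other alternatives stayed within these ranges. The 1 count that moved by more than 1.5 times was that of places in the level order. With counts per kilobase of canonical exons in place of FPKM, 6 of the 10 members kept their place in the WT HCT116 order and 10 of 10 in WT U-87 MG. S100A14 had no value in U-87 MG under the filter. Same-numbered KO and WT libraries were not paired (correlations of their deviations 0.0261, 0.017 and 0.1351 in HCT116 and 0.0249, 0.0013 and -0.0096 in U-87 MG), and with the replicate block the counts were 3 and 3 members and 10, 7 and 15 other genes. In neither line did every library correlate best with its own number.

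Of the alternative values for single members, 224 kept direction and side of the threshold, 1 (S100A2) newly passed it and 3 changed sign. The sign changes were in genes near 0: in HCT116 S100A2 0.0612 without WT replicate 3 (lowest -0.2591), and S100A3 -0.0014 without KO replicate 3 and -0.0261 without WT replicate 1 (highest 0.1563). Among other genes they were S100A5 in HCT116 (0.0252 and 0.0109 without KO replicates 2 and 3, 0.006 and 0.0473 without WT replicates 1 and 2, lowest -0.1237), CHTOP in HCT116 (-0.0518 and -0.0508 on log2(FPKM + 0.1) and log2(FPKM + 1), -0.0013 with no filter, -0.0198 without KO replicate 3, highest 0.0376), S100Z in U-87 MG (-0.0408 without WT replicate 3, highest 0.2578) and AHNAK in U-87 MG (-0.0078 with no filter, -0.0077 without KO replicate 1, -0.0098 and -0.0108 without WT replicates 1 and 2, highest 0.0138). The cause was not tested. Another 25 values (of MINDY1 in HCT116, SYT1 and IL6R in U-87 MG, and the differences of FGF1, IL6R, GATAD2B and ZNF687) lost their call under an alternative and kept their direction. For MINDY1 (0.2984) and both values of IL6R (-0.4986 and 0.5657) this was on log2(FPKM + 1) alone, and without single libraries they stayed called, MINDY1 at 0.737 to 0.9367 and IL6R in U-87 MG at -0.8573 to -0.696. At 4 to 14 counts in a WT library, depth limits S100A1.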

Other observations

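TLR4, a receptor that senses the extracellular calgranulins S100A8 and S100A9, belongs to the list of partners and was singled out after its values were seen. It had 0 counts in each WT U-87 MG library and 164, 124 and 131 counts in the KO libraries. Against a floor of 3 counts over the WT group it was at least 146-fold higher in KO, given as a description. TLR4 passed the filter on low counts only through its KO libraries, so no p is printed for it. It was not called in the report because its mean FPKM over the 6 libraries, 0.457, lies under the threshold of 0.5, while its mean over the KO libraries was 0.914 FPKM. In HCT116 TLR4 had 1 count in 1 KO library and 0 in the other 5. S100A8 and S100A9 themselves had 0 counts in all 12 libraries.

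The co-chaperones PPID and PPP5C, which with STIP1 and FKBP4 bind S100 proteins through their TPR repeats, stayed under the fold threshold. In HCT116 the log2 differences were -0.58 for PPID (edgeR adjusted p = 1.71e-09) and -0.30 for PPP5C (adjusted p = 5.72e-06). In U-87 MG they were -0.15 (adjusted p = 0.0275) and -0.46 (adjusted p = 1.25e-08). ETFDH lies antisense to 56.7% of the exon bases of PPID, so its counts are uncertain where strand was not used. These genes too were singled out after their values were seen.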
